A study of Mus musculus with 3 samples.

Results

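The genes described here are 10 named genes of melatonin synthesis, the pineal gland and the secretory granule, out of 54532 genes listed for each library. They are Tph1, Ddc and Aanat of the melatonin pathway, the transcription factor Crx, the granins Chga, Chgb, Scg2, Scg3 and Scg5, and the prohormone convertase Pcsk1. They were chosen because Chgb and Tph1 were highest in the ZOL library and because the pineal gland lies against the dorsal dura, so their levels below describe these libraries and support no test. RNA came from dural cells of mice inoculated with 4T1-DM cells, a dural metastasis model made from the mouse mammary carcinoma line 4T1, and all groups carried these tumour cells. The mice received ZOL+Ang2, ZOL or PBS, and the labels do not expand the names of the agents or give strain, sex or age. Dorsal dura was taken on day 12 after inoculation and the cells of 6 mice were pooled, so each group was 1 library with no replicates. The labels give the cells as CD45-CD31+PDPN+, which is without the leukocyte protein of Ptprc and with the proteins of Pecam1 (endothelium) and Pdpn (lymphatic endothelium and some stroma).

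Melatonin is made from tryptophan by the pineal gland, a small neuroendocrine gland under the dorsal skull. TPH1 hydroxylates tryptophan, DDC removes the carboxyl group to give serotonin, AANAT acetylates serotonin at night and ASMT methylates the product. Granins are acidic proteins that pack hormones and amines into dense-core granules of endocrine and neuronal cells, where convertases such as PCSK1 cut prohormones. Crx is a homeobox factor of pinealocytes and retinal photoreceptors, which share much of their gene expression. Tph1 and Ddc are also used outside the pineal gland, wherever peripheral cells make serotonin.

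Promoters of Chgb, Scg2, Chga and Pcsk1 are shown because these genes differed in which library held them and yet share a sequence element near the start. The cAMP response element is the site of CREB-family factors, which drive granin genes in endocrine cells. The windows run from 250 bases before to 50 after the RefSeq start (RefSeq, build GRCm38.p6, 5′ to 3′ on the gene's strand), and RefSeq windows matched 9 of the 10 genes. Capitals mark matches to TGACGTCA or to TGACGTNA (which includes the first motif), and in Pcsk1 also a match to TAATCC.
Chgb (chr2:132781392-132781691, plus strand): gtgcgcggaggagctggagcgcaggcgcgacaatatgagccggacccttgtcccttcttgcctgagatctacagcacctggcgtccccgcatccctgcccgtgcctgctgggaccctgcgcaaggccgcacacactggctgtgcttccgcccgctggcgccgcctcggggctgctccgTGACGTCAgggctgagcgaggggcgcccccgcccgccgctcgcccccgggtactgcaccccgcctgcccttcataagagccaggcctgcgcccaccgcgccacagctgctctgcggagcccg
Scg2 (chr1:79439977-79440276, minus strand): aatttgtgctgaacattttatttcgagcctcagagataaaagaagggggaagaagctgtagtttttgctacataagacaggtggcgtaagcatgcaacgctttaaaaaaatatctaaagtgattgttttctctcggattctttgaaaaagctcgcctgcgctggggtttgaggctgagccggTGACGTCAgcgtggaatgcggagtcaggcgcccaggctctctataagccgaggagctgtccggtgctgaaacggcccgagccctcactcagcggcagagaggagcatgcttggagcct
Pcsk1 (chr13:75089607-75089906, plus strand): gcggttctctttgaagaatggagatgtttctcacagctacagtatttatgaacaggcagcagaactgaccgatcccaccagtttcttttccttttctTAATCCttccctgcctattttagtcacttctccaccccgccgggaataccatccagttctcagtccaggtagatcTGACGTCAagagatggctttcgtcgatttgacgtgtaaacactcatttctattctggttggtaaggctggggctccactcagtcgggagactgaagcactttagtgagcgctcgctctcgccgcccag
Chga (chr12:102554691-102554990, plus strand): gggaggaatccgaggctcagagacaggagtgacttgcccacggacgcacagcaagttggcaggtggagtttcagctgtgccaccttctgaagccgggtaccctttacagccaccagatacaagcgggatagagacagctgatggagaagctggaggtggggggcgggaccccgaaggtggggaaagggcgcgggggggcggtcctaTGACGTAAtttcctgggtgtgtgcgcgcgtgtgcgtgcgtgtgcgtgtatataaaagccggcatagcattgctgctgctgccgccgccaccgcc
On both strands, TGACGTCA was found in Chgb, Scg2 and Pcsk1, beginning 72, 68 and 78 bases before the start, against 1.79% of 32851 promoter windows in the table. Chga held TGACGTAA, 44 bases before the start, which matches TGACGTNA, a pattern in 2.93% of all windows. Tph1, Ddc, Crx, Scg3 and Scg5 had no match to either pattern in these windows. For Chgb, the gene start in the GENCODE annotation lies upstream of the RefSeq window. A match is a description of the letters and not evidence that a factor bound there.

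The promoter of Crx is shown for the motif of CRX itself, TAATCC, which the related pineal factor OTX2 also reads. Capitals mark matches, here on the opposite strand as GGATTA.
Crx (chr7:15879906-15880205, minus strand): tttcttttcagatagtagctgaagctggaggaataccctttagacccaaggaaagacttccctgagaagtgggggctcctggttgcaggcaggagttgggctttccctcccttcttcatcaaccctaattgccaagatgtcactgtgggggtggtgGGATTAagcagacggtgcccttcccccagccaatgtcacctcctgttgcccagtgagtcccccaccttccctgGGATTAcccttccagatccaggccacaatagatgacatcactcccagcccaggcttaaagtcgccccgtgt
TAATCC was found 2 times in this window, beginning 94 and 21 bases before the start, and in 7.06% of all windows. Among the other members only the Pcsk1 window held it, 153 bases before the start. The windows of Tph1 and Ddc did not.

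The libraries were of unequal depth and of different make-up, which bears on every value below. Reads recovered from the deposited RPKM values (reads scaled by exon length and by a library total) came to 9204901 in ZOL+Ang2, 16586760 in ZOL and 1675532 in PBS. Levels of different genes are compared below as RPKM, and libraries as CPM (reads scaled to a common library size with TMM factors). A gene can stand in a different order between libraries on these scales, because the recovered reads came to 0.785, 0.701 and 1.496 times the totals that the RPKM values of ZOL+Ang2, ZOL and PBS imply. In PBS, 22.1% of reads lay on 13 satellite-type gene models and 2.87% on odour and pheromone receptor genes, against 3.51% and 0.150% in ZOL+Ang2 and 1.07% and 0.0508% in ZOL. The transcripts of the gate did not follow it evenly: Pecam1 had 177, 475 and 1.08 CPM, Pdpn 171, 67.5 and 18.8 CPM and Ptprc 76.1, 25.1 and 156 CPM in ZOL+Ang2, ZOL and PBS. The lymphatic genes Lyve1 and Prox1 had no reads in ZOL+Ang2 or ZOL, and 0 and 2 reads in PBS.

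Of the 10 members, 6 had more than 3 reads in ZOL, 4 in PBS and 1 in ZOL+Ang2. Of all 54532 genes listed, 14855 had 10 reads or more in ZOL, 10389 in PBS and 11850 in ZOL+Ang2. The share of all genes with more than 3 reads was not computed. Ddc was the only member of the 10 with more than 3 reads in all 3 libraries. Aanat, Scg3 and Scg5 had 0 reads everywhere, which by counting error alone (a floor of 3 reads) allows up to 0.342 CPM in ZOL+Ang2, 0.191 CPM in ZOL and 1.61 CPM in PBS. In bulk samples such as these, fewer cells of a type and less RNA per cell cannot be told apart.

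**Figure D1:**
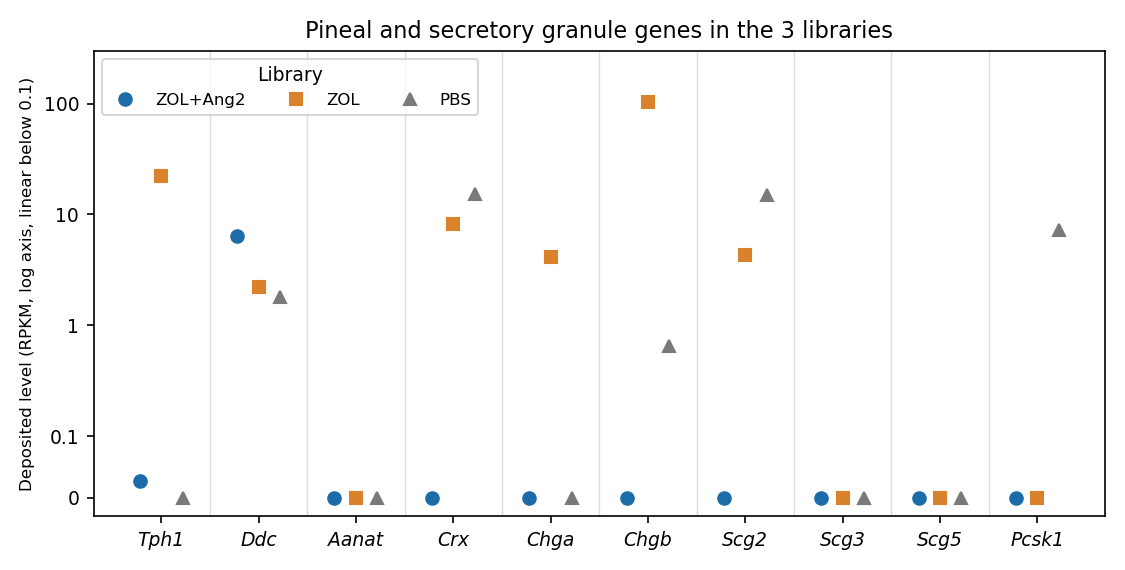
Deposited level of each member (vertical axis, RPKM on a log axis that is linear below 0.1) in the ZOL+Ang2, ZOL and PBS libraries, 1 point per library. Chgb in ZOL, at 104 RPKM, is the highest point, and all members except Ddc and Tph1 lie at 0 in ZOL+Ang2.

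In the melatonin pathway, the enzyme at its entry was abundant in 1 library and the enzyme specific to melatonin was found in none. Tph1 (ENSMUSG00000040046; chromosome 7, 46644641 to 46672537, minus strand, mm10) had 2 reads in ZOL+Ang2, 3220 in ZOL and 0 in PBS, or 0.0276, 22.0 and 0 RPKM. Its level in ZOL exceeded that of 90.2% of the genes with reads there. Between ZOL+Ang2 and ZOL it was 899-fold lower in ZOL+Ang2 (95% counting interval 249 to 7429.8), and it was at least 127-fold higher in ZOL than in PBS when PBS is set at the floor of 3 reads. Intervals and bounds cover counting error only, since these amplified reads carry no molecular identifiers.

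Ddc (ENSMUSG00000020182; chromosome 11, 11814101 to 11898144, minus strand) took a different course from Tph1, with its highest level in ZOL+Ang2. It had 337, 233 and 9 reads in ZOL+Ang2, ZOL and PBS, or 6.44, 2.21 and 1.80 RPKM. It was 2.59-fold higher in ZOL+Ang2 than in ZOL (interval 2.18 to 3.07) and 7.93-fold higher than in PBS (4.13 to 17.5). In ZOL, Tph1 stood 9.99-fold above Ddc per length (8.74 to 11.5), whereas in ZOL+Ang2 the order was the other way, with 2 reads of Tph1 against 337 of Ddc. An antisense model, 1700042O10Rik, lies within Ddc but shares no exon bases with it.

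Aanat (ENSMUSG00000020804; chromosome 11, 116586432 to 116597680, plus strand), the acetyltransferase whose daily rhythm sets melatonin output, was at 0 reads in each library. Asmt, the last enzyme of the pathway, was also at 0 in each. The remaining genes of the melatonin and serotonin list (14 genes, 7 of them averaging 10 CPM or more) were spread over the libraries. Of those 7, 2 were higher and 2 lower by 2-fold or more in ZOL+Ang2 against ZOL, where 16.2% of the 10942 genes compared were higher and 24.8% lower. In ZOL against PBS 3 of the 7 were higher and 1 lower, where 49.2% of genes were higher and 29.4% lower. Gch1, Spr, Qdpr and Slc18a1 each passed the filter on the level of a single library, so nothing is read from these counts. Maoa, which degrades serotonin, had 109 CPM in ZOL+Ang2, 45.5 in ZOL and 0 in PBS, while Maob, its paralogue, stood at 27.1, 33.6 and 31.2 CPM. The vesicular amine transporters were each found in a single library: Slc18a2 had 0, 214 and 0 reads and Slc18a1 0, 0 and 104 reads in ZOL+Ang2, ZOL and PBS.

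TPH1 needs the cofactor tetrahydrobiopterin, whose 5 listed enzymes were not all highest in the same library. Among all genes compared, 15.5% were at least 2-fold above both other libraries in ZOL. Gch1, which starts its synthesis, had 583 reads in ZOL+Ang2 and 0 in both ZOL and PBS, so that the library with most Tph1 had no Gch1 reads. Pts, the following enzyme, had 22.2, 10.2 and 21.5 CPM in ZOL+Ang2, ZOL and PBS. Spr, sepiapterin reductase, which completes the synthesis, was highest in ZOL, at 7.75, 28.5 and 0 CPM. Qdpr, which regenerates the cofactor, was likewise highest in ZOL, at 13.0, 82.6 and 3.77 CPM. Pcbd1, which acts in the same regeneration, had 0, 282 and 0 reads and lay under the 10 CPM filter. The melatonin receptors Mtnr1a and Mtnr1b were at 0 in each library, and the serotonin transporter Slc6a4 had 4 reads in ZOL and none in ZOL+Ang2 or PBS. Asmt, Maob, Slc18a2, Gch1, Spr, Pcbd1, the receptors and Slc6a4 are named here after their values were seen.

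Crx (ENSMUSG00000041578; chromosome 7, 15865947 to 15879968, minus strand) was present in ZOL and PBS and absent from the ZOL+Ang2 reads. It had 0, 610 and 54 reads in ZOL+Ang2, ZOL and PBS, or 0, 8.15 and 15.3 RPKM. Against ZOL it was at least 114-fold lower in ZOL+Ang2, and against PBS at least 84.9-fold lower. ZOL and PBS lay close, at 38.9 and 29.1 CPM (1.34-fold, interval 1.01 to 1.80), and their order is the other way in RPKM.

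The other pineal and photoreceptor genes had their highest summed level in ZOL. Of 20 such genes, 15 had 0 reads in ZOL+Ang2, 6 in ZOL and 12 in PBS. Of all 54532 genes listed, 15713, 18592 and 16142 had any reads in ZOL+Ang2, ZOL and PBS. The ZOL library was also the deepest, so nothing is read from the genes with reads. The summed level of the list was 34.8, 299 and 99.0 CPM. Averaging 10 CPM or more were 7 of them, and Sag, Rbp3, Gngt2, Bsx and Lhx4 passed this filter on their ZOL level alone, so no count over those that passed is read. The list was written with earlier results of these libraries known, so it is no independent evidence. Sag, the arrestin of photoreceptors and pinealocytes, had 5, 991 and 0 reads in ZOL+Ang2, ZOL and PBS. Rbp3, a retinoid-binding protein of the same cells, stood at 11.4, 67.8 and 1.08 CPM. Pdc and Pde6b, phosducin and a phosphodiesterase subunit of rods, had 0 reads in ZOL+Ang2, 0 and 6.88 CPM in ZOL, and their highest levels in PBS, 34.4 and 29.1 CPM.

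Bsx, Lhx4, Otx2 and Pax6, other homeobox genes of pineal development, had their highest CPM in ZOL, whereas Crx had close levels in ZOL and PBS. Otx2 and Pax6 lay under the 10 CPM filter. Over all genes compared, 15.5% were at least 2-fold above both other libraries in ZOL. Bsx had 0, 505 and 0 reads and Lhx4 0, 522 and 4 reads in ZOL+Ang2, ZOL and PBS. Otx2 had 0, 178 and 0 reads. Pax6 had 0, 235 and 9 reads, and its deposited levels in ZOL and PBS were close, at 0.849 and 0.687 RPKM. Opn1sw, an opsin of cones, and Rcvrn, which encodes recoverin, were at 0 in each library, as was Adra1b, a noradrenaline receptor of pinealocytes. Adrb1, another receptor of the list, had 7 reads in ZOL+Ang2 and 0 in ZOL and PBS. These genes, and Gngt2, are named after their values were seen.

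**Figure D2:**
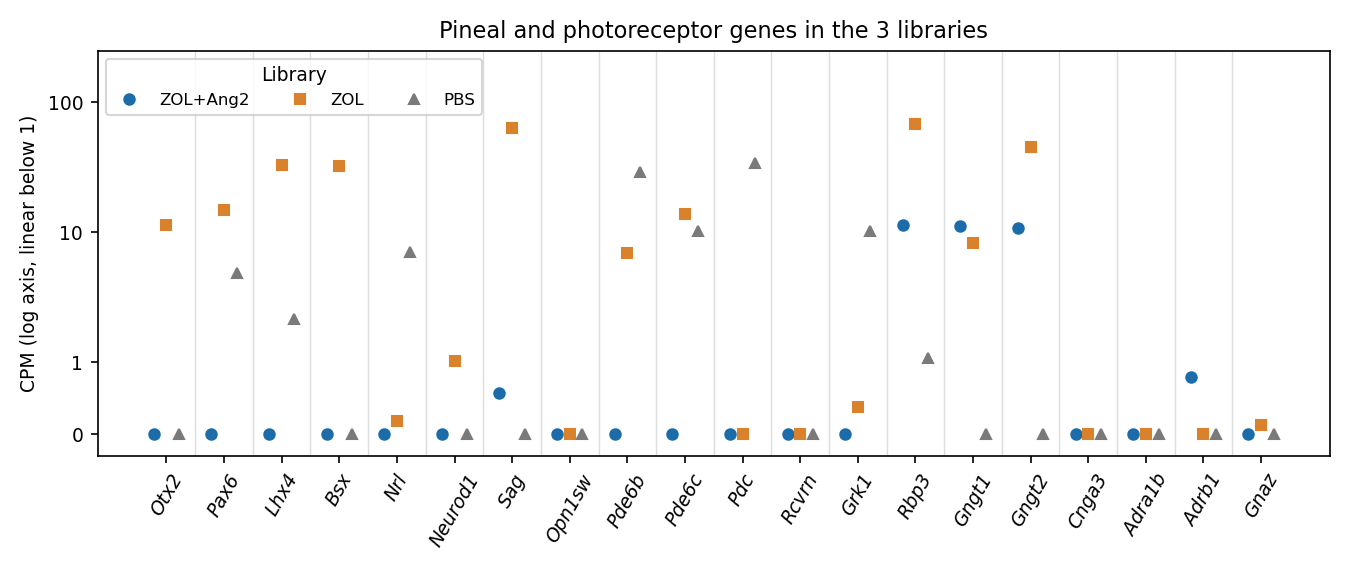
Level of the 20 pineal and photoreceptor genes other than the members (vertical axis, CPM on a log axis that is linear below 1) in ZOL+Ang2, ZOL and PBS, 1 point per library. Sag, Rbp3, Gngt2, Bsx and Lhx4 stand highest in ZOL, and Pdc and Pde6b in PBS.

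Among the granins, Chgb dominated and was almost confined to ZOL among these 3 libraries. Chgb (ENSMUSG00000027350; chromosome 2, 132781278 to 132795079, plus strand), chromogranin B, had 0 reads in ZOL+Ang2, 6755 in ZOL and 2 in PBS, or 0, 104 and 0.652 RPKM. In ZOL it exceeded 98.0% of genes with reads. It was at least 1258-fold lower in ZOL+Ang2 than in ZOL, and 399.8-fold higher in ZOL than in PBS (111 to 3302, from 2 PBS reads).

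Chga (ENSMUSG00000021194; chromosome 12, 102554969 to 102565028, plus strand), chromogranin A, had the same order at a far lower level. It had 0, 271 and 0 reads in ZOL+Ang2, ZOL and PBS, or 4.15 RPKM in ZOL. In ZOL, Chgb stood 25.1-fold above Chga per length (22.2 to 28.4). With a mean of 5.75 CPM, Chga lay under the filter and was not among the genes compared.

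Scg2 (ENSMUSG00000050711; chromosome 1, 79434669 to 79440120, minus strand), secretogranin II, resembled Crx more than the chromogranins. It had 0 reads in ZOL+Ang2, 257 in ZOL and 42 in PBS, or 0, 4.32 and 14.9 RPKM. In CPM, ZOL stood at 0.724 times PBS (interval 0.521 to 1.03), within 2-fold. Against ZOL it was at least 47.9-fold lower in ZOL+Ang2 and against PBS at least 66.1-fold lower. Scg3 (chromosome 9), which holds granins at the granule membrane, and Scg5 (chromosome 2), the chaperone of the convertase PCSK2, had no reads, and neither had Pcsk2 itself (named after its values were seen).

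Pcsk1 (ENSMUSG00000021587; chromosome 13, 75089826 to 75134861, plus strand), the convertase of the regulated pathway, was found in PBS and in neither other library. It had 0, 0 and 45 reads in ZOL+Ang2, ZOL and PBS, or 7.17 RPKM in PBS. It was at least 70.8-fold lower in ZOL+Ang2 and at least 127-fold lower in ZOL than in PBS. Its mean of 8.07 CPM also lay under the filter. Pcsk1n, which encodes an inhibitor of PCSK1, was likewise highest in PBS, at 0, 5.16 and 34.4 CPM in ZOL+Ang2, ZOL and PBS. The libraries with Chgb and with Pcsk1 reads were thus mostly different ones.

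Among the other granule enzymes, which many secretory cells use, the most abundant was Cpe, at close levels in ZOL+Ang2 and ZOL. Of 14 genes for processing enzymes and granin relatives, 7 averaged 10 CPM or more, of which 1 (Cpd) was higher and 2 (Furin and Pcsk1n) were lower by 2-fold or more in ZOL+Ang2 against ZOL. These shares are near the 16.2% and 24.8% over all genes, so the counts are no result about the list. Cpe, the carboxypeptidase that trims prohormones, stood at 447 CPM in ZOL+Ang2, 452 in ZOL and 1.61 in PBS (0.987-fold between ZOL+Ang2 and ZOL, interval 0.949 to 1.03). Per length, Chgb in ZOL was 0.906 times Cpe (0.876 to 0.936). Furin, the convertase of the constitutive pathway, stood at 28.3, 112 and 1.08 CPM and Cpd, a carboxypeptidase of the trans-Golgi, at 60.6, 27.3 and 116 CPM. The granule genes Vgf, Resp18 and Slc30a8 were at 0 in each library, and Ptprn, a granule membrane protein, had 378 reads in ZOL and none in ZOL+Ang2 or PBS (these 4 named after their values were seen).

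The regulated exocytosis list had members in every library. Of its 17 genes, 5 had 0 reads in ZOL+Ang2, 2 in ZOL and 9 in PBS. Genes with any reads were also most numerous in ZOL over all 54532 genes (15713, 18592 and 16142 in ZOL+Ang2, ZOL and PBS). Depth differed in the same order of ZOL, ZOL+Ang2 and PBS, so nothing is read from the genes with reads. Of the 9 that averaged 10 CPM or more, 2 were higher and 5 lower by that measure in ZOL+Ang2 against ZOL, where 16.2% of all genes were higher and 24.8% lower. Vamp2 and Unc13a, both among the lower ones, passed the filter on their ZOL level alone, so nothing is read from these counts. Vamp3, a vesicle protein of many cells and the most abundant of the list, had 20.5, 160.3 and 116 CPM. Vamp2, part of the fusion machinery, had 0 reads in ZOL+Ang2, 498 in ZOL and 0 in PBS. Unc13a, a priming factor, had 2, 484 and 0 reads. Syt1, the calcium sensor of fast release, and Cadps, a granule priming factor, had 0.342 and 3.53 CPM in ZOL+Ang2, 4.33 and 23.7 CPM in ZOL and 33.4 and 107 CPM in PBS, where both were highest. Rest, the repressor of granin and other neuronal genes outside neurons, stood at 38.3, 70.1 and 8.61 CPM in ZOL+Ang2, ZOL and PBS, so it was highest in the library with most Chgb. The neuroendocrine factors Insm1 and Nkx2-2 had no reads in any library (named after their values were seen). Crem and Creb1, which act at cAMP response elements, had 37.4 and 24.3 CPM in ZOL+Ang2, 36.4 and 29.0 CPM in ZOL and 93.6 and 37.1 CPM in PBS.

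Of the 10 members, 5 (Tph1, Ddc, Crx, Chgb and Scg2) averaged at least 10 CPM and were compared, with a call at 2-fold on log2(CPM + 5). The others lay under that filter. The members were picked on these values, so the counts are set beside the background and nothing is read from them. In ZOL+Ang2 against ZOL, 1 of 5 was higher (Ddc) and 4 were lower, where 16.2% of 10942 genes were higher and 24.8% lower. In ZOL+Ang2 against PBS, 1 of 5 was higher (Ddc) and 2 were lower (Crx and Scg2), where 44.2% of genes were higher and 33.1% lower. In ZOL against PBS, 3 of 5 were higher (Tph1, Chgb and Ddc) and 0 lower, where 49.2% of genes were higher and 29.4% lower. Tph1 and Chgb were the 2 members at least 2-fold above both other libraries in ZOL, where 15.5% of genes were. These comparisons share libraries with each other.

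Ddc passed 2-fold in ZOL against PBS by little, at 1.01 log2 units, and no longer did with median-of-ratios factors, with no factor, in deposited RPKM or at equal depth, whereas Tph1 and Chgb passed in each of these. The median log2 fold of all genes was -0.02 in ZOL+Ang2 against ZOL, 0.48 in ZOL+Ang2 against PBS and 0.94 in ZOL against PBS. With median-of-ratios factors the last moved to -0.17, and of all genes past 2-fold 47.3% were on the higher side in place of 62.6% (46.0% in place of 57.1% for ZOL+Ang2 against PBS). Beside these, the medians of the 5 members were -3.13, -0.28 and 1.01.

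**Figure D3:**
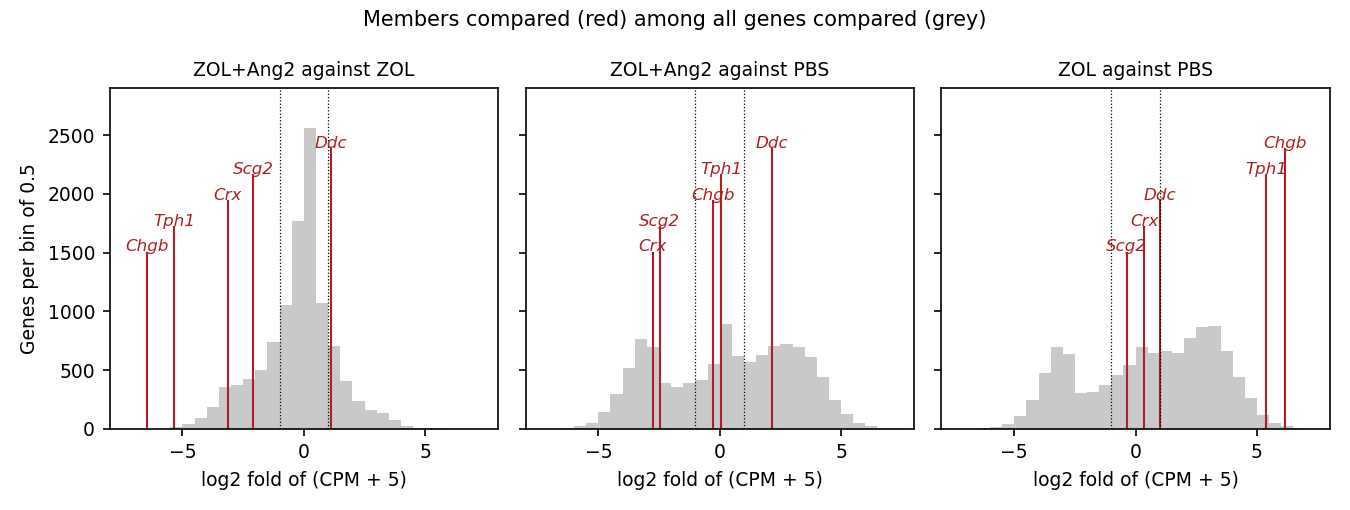
Distribution of the log2 fold of CPM + 5 over the 10942 genes compared (grey, genes per bin of 0.5) in ZOL+Ang2 against ZOL, ZOL+Ang2 against PBS and ZOL against PBS, with the 5 members compared in red and 2-fold as dotted lines. Chgb, at -6.44, and Tph1, at -5.33, lie at the left end in ZOL+Ang2 against ZOL, and both lie at the right end in ZOL against PBS.

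Set among all genes, Chgb and Tph1 lay at the ends of the distribution, while the other members did not. These places describe the values that the members were chosen on. In ZOL+Ang2 against ZOL no other gene of the 10942 had a lower log2 fold than Chgb (-6.44), and 4 had a lower one than Tph1 (-5.33). Crx lay above 4.98% of genes and Scg2 above 12.8%. In ZOL against PBS, 20 genes had a higher log2 fold than Chgb (6.16) and 100 a higher one than Tph1 (5.39), whereas Ddc lay above 50.9% of genes.

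Genes without reads in ZOL+Ang2 were common at the ZOL levels of Crx, Chga and Scg2. Of 5135 genes with 10 to 50 CPM in ZOL, 21.9% had 0 reads in ZOL+Ang2 and 40.5% in PBS. Of 5551 genes with 10 to 50 CPM in PBS, the range of Pcsk1, 47.1% had 0 reads in ZOL+Ang2 and 41.3% in ZOL.

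**Figure D4:**
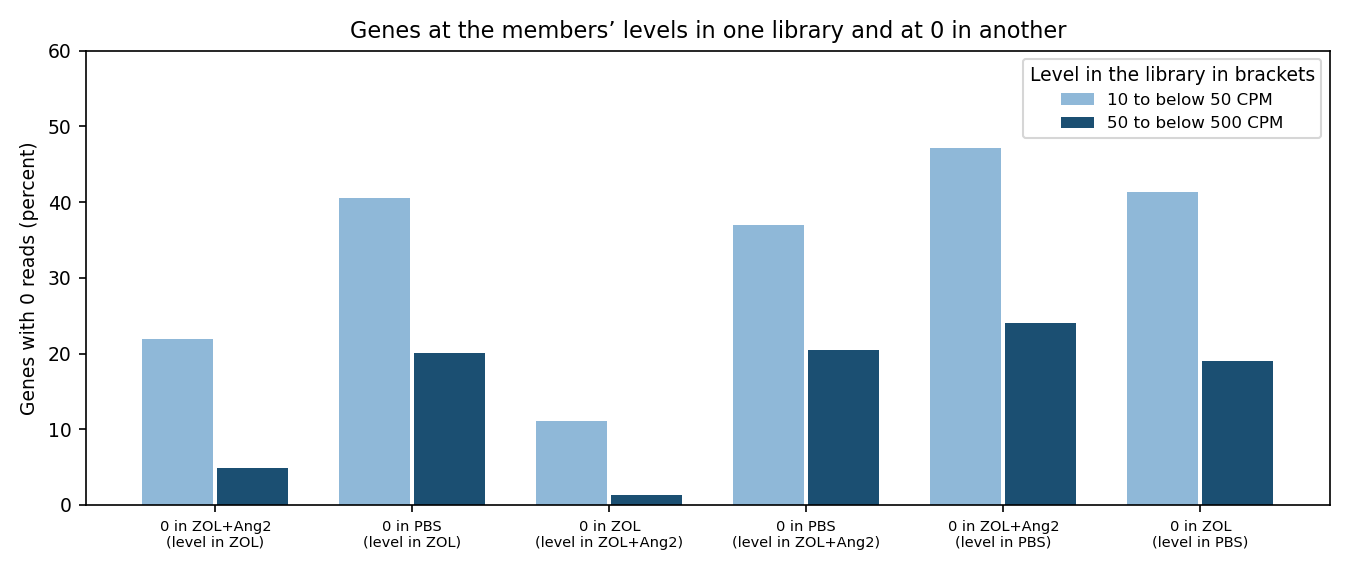
Share of genes with 0 reads in a library (vertical axis, percent) among genes at 10 to below 50 CPM (light) or 50 to below 500 CPM (dark) in the library named in brackets. Genes at 10 to below 50 CPM in ZOL had 0 reads in ZOL+Ang2 in 21.9% of cases and in PBS in 40.5%, and the shares are lower for genes at 50 to below 500 CPM.

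The genes with the nearest profiles to Chgb and Tph1 were not granule genes. By Euclidean distance in log2(CPM + 5) over the 3 libraries, among 10941 genes, those nearest to Chgb were Pola2, Fdft1, Lztr1, Pcna and Tph1 (distances 0.39 to 1.09). Nearest to Tph1 were Serpina3n, Grrp1, Sigirr, Fdft1 and Parp3 (0.28 to 0.37). Pola2, a subunit of DNA polymerase alpha, had 0.342 CPM in ZOL+Ang2, 359 in ZOL and 0 in PBS, and Serpina3n, an acute-phase protease inhibitor, 0, 169 and 0. A likeness over 3 libraries rests on 3 points.

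Of the 4 protein-coding neighbours of Chgb and Tph1 on their chromosomes, Trmt6 was also highest in ZOL, at a far lower level, and the other 3 were highest in another library. Beside Chgb, Shld1 stood at 1.71, 18.7 and 74.3 CPM and Trmt6 at 2.62, 23.1 and 0 CPM in ZOL+Ang2, ZOL and PBS. Beside Tph1, Sergef stood at 0, 20.3 and 38.7 CPM and Saal1 at 84.5, 32.4 and 0 CPM. No member shared exon bases with another annotated gene among those in the files.

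Markers of cells that carry these genes elsewhere were low or incomplete in ZOL. Of all 54532 genes listed, 18592 had any reads in that library, against 15713 in ZOL+Ang2 and 16142 in PBS. Mast cells make serotonin in mice, and of 11 mast cell genes 6, 9 and 7 had 0 reads in ZOL+Ang2, ZOL and PBS. The defining proteases Cpa3, Tpsb2, Tpsab1, Mcpt4 and Cma1 were at 0 in each library (the last 3 named after their values were seen). The genes with reads in ZOL were Hdc, which makes histamine, and the receptor Kit. They had 0 and 0.342 CPM in ZOL+Ang2, 7.20 and 15.0 CPM in ZOL and 89.3 and 31.8 CPM in PBS. The mast cell list summed to 39.2, 22.2 and 167 CPM in ZOL+Ang2, ZOL and PBS, and Hpgds alone had 36.4 CPM of the ZOL+Ang2 sum. Of the neuron list, Rbfox3 had 0, 2 and 0 reads and Tubb3 0, 180 and 0 reads, and the list summed to 0.456, 42.6 and 177 CPM. The pituitary list summed to 15.5, 10.3 and 107 CPM. Its hormone genes Pomc, Gh, Cga and Lhb were at 0 in each library. Prolactin (Prl) had 0, 2 and 54 reads in ZOL+Ang2, ZOL and PBS and Pou1f1, the factor of prolactin cells, 0, 24 and 54 reads. Fshb and Tshb had 11 and 1 reads in PBS and 0 in the other libraries. Pitx1 went the other way, at 14.0, 8.66 and 0 CPM in ZOL+Ang2, ZOL and PBS. Pitx1 and these hormone genes other than Pomc and Gh are named after their values were seen. The chromaffin and sympathetic list summed to 0, 4.40 and 71.0 CPM, with Th and Dbh at 0 in each. The choroid plexus list summed to 56.9, 149 and 180.3 CPM, with Ttr, its defining transcript, at 13.0, 9.68 and 1.08 CPM. Enpp2 alone had 32.6, 115 and 55.4 CPM of these sums. In PBS the highest genes of the neuron, pituitary and sympathetic lists were Stmn2 at 96.3 CPM, Gnrhr at 42.5 and Slc6a2 at 70.0. Map2 and Nefl, of the neuron cytoskeleton, had 19.4 and 33.4 CPM there, while Rbfox3, Th and Dbh had 0 reads. In ZOL, Map2 stood at 19.7 CPM, close to its PBS level, and Nefl at 0. Both had 0 reads in ZOL+Ang2.

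Marker lists of abundant cell types also differed between the libraries. The simple epithelium and mammary carcinoma list (14 genes) summed to 6278, 6688 and 796 CPM in ZOL+Ang2, ZOL and PBS. The sum was close between ZOL+Ang2 and ZOL, but not every gene in it was. Krt8 and Krt18 had 2057 and 1885 CPM of it in ZOL+Ang2, and 2451 and 1911 CPM in ZOL. Krt19 and Spint1 had 1.03 and 39.7 CPM in ZOL+Ang2, and 37.3 and 108 CPM in ZOL. Cldn4 and Esrp1 went the other way, from 167 and 37.2 CPM in ZOL+Ang2 to 48.4 and 5.10 CPM in ZOL. Krt19, Cldn4 and Esrp1 are named after their values were seen. The pan-endothelial list (12 genes) summed to 1210.0, 3392 and 1673 CPM, the fibroblast list (6 genes) to 10780, 454 and 343 CPM, and the leukocyte and myeloid list (8 genes) to 2014, 106 and 1177 CPM. The lymphatic endothelial list (7 genes) summed to 218, 169.6 and 275 CPM, but its genes went different ways. Mmrn1 and Reln had 155 and 99.6 CPM of the PBS sum, with Flt4 at 0.538, whereas Pdpn had 171 of the ZOL+Ang2 sum. The levels of these lists are therefore no measure of cell numbers. Their part in the levels of the members was not tested.

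**Figure D5:**
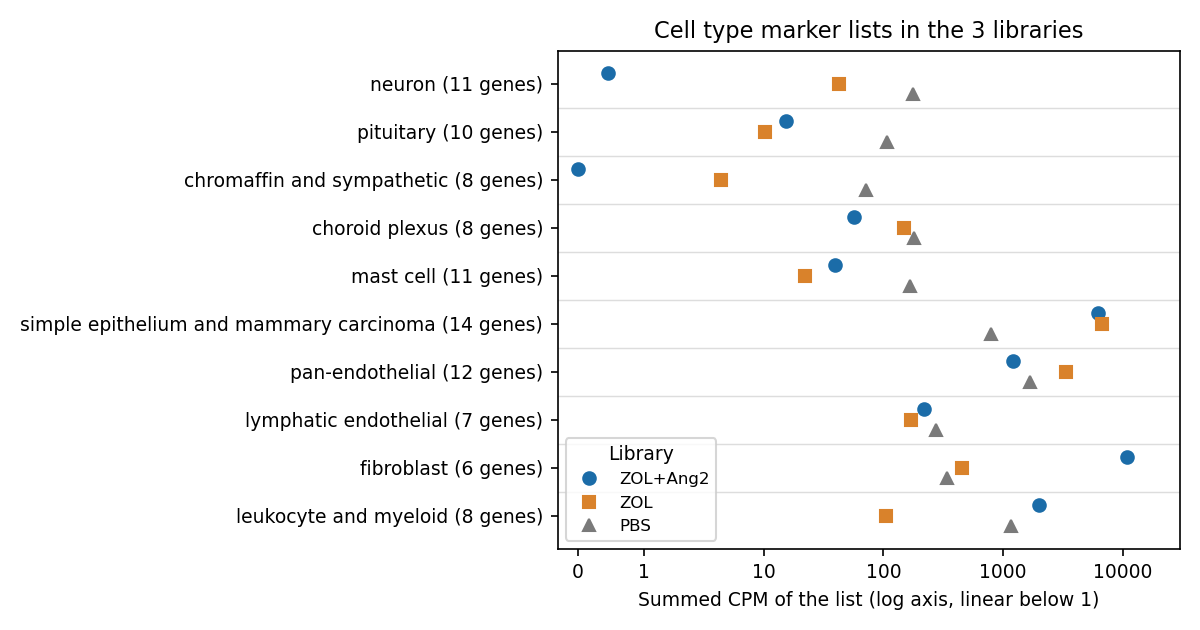
Summed CPM of each list of cell type markers (horizontal axis, log axis that is linear below 1) in ZOL+Ang2, ZOL and PBS, 1 point per library. Neuron, pituitary, sympathetic and mast cell lists are highest in PBS, whereas the sum of the epithelial list is close between ZOL+Ang2 and ZOL, at 6278 and 6688 CPM.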

How the data were processed

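RNA of pooled dural cells was sequenced in 3 libraries, 1 per treatment label. The authors deposited RPKM values per gene, scaled by a library total that no source used here defines. The tools were fastp, HISAT2 2.2.1 and featureCounts 2.0.6 with mm10, per the submitters' processing notes. The values times the exon lengths of GENCODE M21 were turned into reads, and 96.2%, 96.4% and 96.9% of values above 0 came out whole (tolerance 0.01) in ZOL+Ang2, ZOL and PBS. In each file 37 genes had no exon length and were left out.

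Whether these reads are the authors' counts is not known. CPM were computed from the reads with TMM factors of 0.953, 0.946 and 1.11 (30% and 5% trimmed). Only genes that averaged 10 CPM or more entered the comparisons, on log2(CPM + 5), a scale that understates differences of low genes. Folds of single genes are CPM ratios with exact 95% binomial intervals, or bounds against a floor of 3 reads. The design had been written for such reads, and no test was possible without replicates. Steps were tested on simulated data. Other scalings, priors, filters, equal depth and deposited RPKM (pseudocount 0.1) were tried. Promoters came from RefSeq. Python 3.11.15, numpy 2.4.6, scipy 1.17.1 and pandas 2.3.3 were used.

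Named genes were drawn from the members, the 2 highest and 2 lowest compared genes of each list in ZOL against PBS, its most abundant gene, the first 2 genes of cell type lists, and the 5 genes nearest to Chgb and to Tph1. Not all of these are printed, and genes from outside this rule are marked as named after their values were seen. A few genes of the lists are not reported here and were left out of the counts. Members, lists and rules were chosen with earlier results of these data known.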

Additional observations from a re-analysis of the deposited data

How the results depend on the processing

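No paired analysis was possible because each group is 1 library, so no replicate could be left out of a group either. Of 56 counts of members under the alternatives, 46 stayed within 1.5 times the reported count. Of 130 log2 folds of single members, 84 stayed within the counting error of the reported fold and 46 did not. None of the folds reported as past 2-fold changed sign. Chgb in ZOL+Ang2 against ZOL, -6.44 as reported, was -10.0 in deposited RPKM and -6.08 at equal depth. The number of members at least 2-fold lower in ZOL against PBS, 0 as reported, was 2 with median-of-ratios factors (Scg2 and Pcsk1), and 1 in each of deposited RPKM (Scg2), a filter of 1 CPM, no filter, equal depth, and scaling without satellite-type, mitochondrially encoded and ribosomal RNA models (Pcsk1 in the last 4). With a filter of 50 CPM, only Tph1 and Chgb were compared, so the members higher were 0 in place of 1 and lower 0 in place of 2 in ZOL+Ang2 against PBS, and higher 0 in place of 1 and lower 2 in place of 4 in ZOL+Ang2 against ZOL. Without PBS replicate 1 in scaling and filter, an alternative chosen after seeing the data, 3 members were lower and 1 higher in ZOL+Ang2 against ZOL, Scg2 falling under the filter. In the deposited RPKM, with median-of-ratios factors and at equal depth, Crx in ZOL against PBS was -0.90, -0.40 and -0.31 log2 units, against 0.36 as reported, within 2-fold in each. Depth limits the PBS values most, where 1 read is worth more CPM than in the other libraries.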
